A study of Mus musculus with 12 samples.

Results

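Interferon-stimulated genes are the genes that cells switch on when an interferon binds its receptor. The 45 genes described here were taken from the deposited count table by symbol, as the rows whose gene name equals one of a list of interferon-induced symbols, and they are 45 of the 55376 genes listed. All 45 passed the filter on low counts that left 11994 genes for testing. In all 12 libraries together they held between 132 counts (Cxcl10) and 13194 counts (Samd9l) each.

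The libraries were made from cultured mouse bone marrow progenitors, sorted as c-Kit+, Sca-1+ and lineage-negative, in 4 groups of 3. A first group carried NUP98-NSD1 with sh#1 against Nizp1 and a second NUP98-NSD1 with sh#2 against Nizp1. The next carried NUP98-NSD1 with the control hairpin sh#ctrl, and the last the empty retroviral vector MSCV with sh#ctrl. NUP98-NSD1 joins part of a nuclear pore protein to NSD1, an enzyme that methylates histone H3, and occurs in acute myeloid leukaemia. Nizp1 is a zinc finger protein that binds NSD1, listed as Zkscan17 in the table. All groups went through MSCV retrovirus, geneticin selection as the labels describe it for the retroviral constructs, and pLKO.1 hairpins, and the medium held SCF (100 ng/ml) and the interleukins IL-3 (20 ng/ml) and IL-6 (20 ng/ml). Both hairpins were tested in fusion cells alone, so every hairpin comparison has the fusion on both sides. For the strain, age and number of mice, and for whether a culture was a pool or a clone, nothing was given in the sources used here. Libraries carry replicate numbers 1 to 3, and the series speaks of independent experiments without saying that a number marks one.

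Type I interferons bind IFNAR1 and IFNAR2, which activate JAK kinases, and the complex ISGF3, which holds STAT2 and IRF9, then enters the nucleus. ISGF3 binds the interferon-stimulated response element (ISRE), a repeat of GAAA blocks in the promoters of its target genes, while interferon gamma acts through the GAS element. Among the products are sensors of viral RNA and DNA, enzymes and membrane proteins that block viral replication, and the factor IRF7, which amplifies interferon production. In blood stem and progenitor cells, type I interferon is known to drive quiescent stem cells into cycle, and a basal level of these genes is part of their normal state.

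Promoter windows of RefSeq (GRCm38.p6, 250 bases before to 50 after a gene's start) matched 34 of the 45 genes. The missing entries were Mx1, Mx2, Oas2, Dhx58, Zbp1, Ifi204, Usp18, Parp9, Parp14, Ifi27l2a and Rtp4. The ISRE core was searched on both strands, overlapping matches allowed, as GAAA, any 2 bases and GAAA. It was found for 17 of the 34 genes, against 3.99% of all 27025 genes with a window. The longer form, which is the core followed by CT, was found for 11 of the 34 genes (32.4%), against 0.303% of genes. The GAS motif TTCNNNGAA was found for 8 of the 34 genes (23.5%), against 9.55% of genes. The pieces below show the core match in capitals, on the strand of the gene and 5′ to 3′, for genes whose levels carry the results and for 2 genes, Bst2 and Stat2, that hold the core but did not pass the test between replicate numbers. A match upstream reads as TTTC blocks where the element lies on the other strand.
Ifit1 (chr19:34640794-34640823, plus strand): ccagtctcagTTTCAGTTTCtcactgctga
Ifit3 (chr19:34583363-34583392, plus strand): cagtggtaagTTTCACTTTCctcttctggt
Rsad2 (chr12:26456553-26456582, minus strand): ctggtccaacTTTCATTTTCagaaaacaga
Oas1a (chr5:120907526-120907555, minus strand): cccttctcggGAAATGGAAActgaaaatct
Isg15 (chr4:156200871-156200900, minus strand): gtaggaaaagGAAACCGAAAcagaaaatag
Irgm1 (chr11:48871425-48871454, minus strand): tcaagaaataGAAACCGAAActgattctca
Cxcl10 (chr5:92349083-92349112, minus strand): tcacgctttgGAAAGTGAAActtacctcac
Bst2 (chr8:71537583-71537612, minus strand): ggcattccagGAAAATGAAActgaaaggct
Stat2 (chr10:128270266-128270295, plus strand): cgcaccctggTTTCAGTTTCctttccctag

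Total counts were 3586538 to 6842589 per library, so that 3 counts were worth 0.417 to 0.837 CPM (counts per 1000000, scaled by the TMM factor). Zkscan17 was at 26.2, 30.4 and 35.0 CPM with sh#1, at 17.6, 27.0 and 29.0 CPM with sh#2, and at 49.4, 61.8 and 62.6 CPM in fusion cells with sh#ctrl (numbers 2, 3 and 1), below sh#ctrl in every pair. With the empty vector it was at 57.0, 68.2 and 64.2 CPM. With the replicate block its log2 fold change was -0.93 ± 0.12 with sh#1 and -1.25 ± 0.12 with sh#2 (edgeR adjusted p = 0.00198 and 2.90e-04), while without the block the adjusted p was 0.49 and 0.228. The sort markers Kit (1930 to 3105 CPM) and Cd34 (1140 to 2022 CPM) were present throughout, and Ly6a, which encodes Sca-1 and is itself interferon-induced, was at 23.8 to 277 CPM. Against the label of progenitors, 12 of 12 mast cell genes passed the filter and summed to 40547 to 65945 CPM. Libraries that share a replicate number deviated together from their group means (18 of 18 pairs), so that fits with the number as a block stand beside those without it.

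The level of the interferon-stimulated genes differed among libraries of 1 group more than among groups. Their share of all counts was 0.642% in the fusion library with sh#ctrl numbered 2, and between 0.1% and 0.314% in the other 11 libraries. The mean log2(CPM + 1) over the 45 genes was 5.60, 3.18 and 4.88 with sh#1 and 5.61, 3.40 and 4.84 with sh#2 in numbers 2, 3 and 1. It was 6.82, 3.04 and 3.92 in fusion cells with sh#ctrl and 5.50, 3.05 and 3.77 with the empty vector. In each group number 2 was highest and number 3 lowest. The fusion library with sh#ctrl numbered 2 was the highest of 12 in 43 of 45 genes, and the remaining 2, Psmb8 and Psmb9, peaked in the empty-vector library numbered 3. As these are bulk libraries, fewer cells that make an RNA and less of it per cell cannot be told apart.

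**Figure D1:**
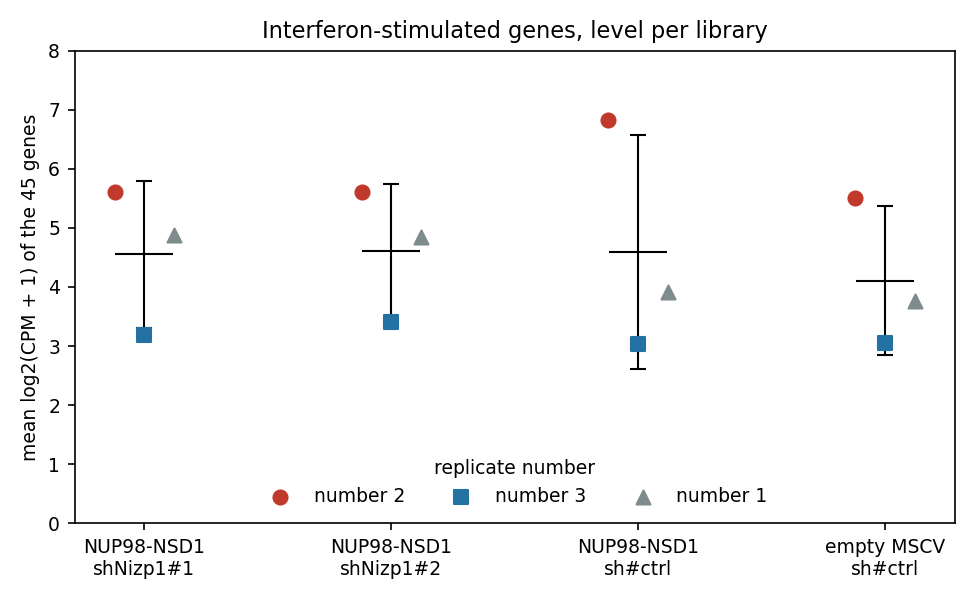
Mean log2(CPM + 1) of the 45 interferon-stimulated genes (vertical axis) in each library of the 4 groups; colour and shape give the replicate number, and bars the group mean ± SD (n = 3). Number 2 lies at the top of each group, at 5.50 to 6.82, and number 3 at the bottom, at 3.04 to 3.40.

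Per kilobase of the exon length in the table, the most abundant of the 45 genes over all libraries were Ifi27l2a (185 CPM per kb), Ifitm3 (138), Bst2 (113) and Psmb8 (88.7), and the least abundant were Gbp3 (1.75) and Cxcl10 (1.40). The order depended on the replicate number. Ifi27l2a, which encodes a small hydrophobic protein, averaged 388 CPM per kb in number 2, 19.6 in number 3 and 147 in number 1. Psmb8, an immunoproteasome subunit, averaged 89.5, 96.1 and 80.4 CPM per kb in numbers 2, 3 and 1, which left it the most abundant of the 45 in number 3.

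Of the sensors of viral nucleic acid, Ddx58 encodes the RNA helicase RIG-I, Ifih1 the helicase MDA5, and Ifi204 a DNA-binding protein of the PYHIN family. Ddx58 was at 129, 34.3 and 110 CPM with sh#1 and at 133, 42.3 and 108 CPM with sh#2 (numbers 2, 3 and 1). It was at 253, 31.4 and 57.8 CPM in fusion cells with sh#ctrl and at 126, 33.4 and 59.8 CPM with the empty vector. In number 1 both hairpins gave more Ddx58 than the control, and in number 2 less. Ifi204 had the same order, at 49.1, 5.28 and 14.0 CPM with sh#1 and 47.6, 5.87 and 14.2 CPM with sh#2. It was at 95.6, 4.51 and 7.88 CPM in fusion cells with sh#ctrl, against 33.1, 3.91 and 10.4 CPM with the empty vector.

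Among the transcription factors, Irf7 showed the widest swing. It was at 220, 1.94 and 97.3 CPM with sh#1 and 155, 6.31 and 101 CPM with sh#2 in numbers 2, 3 and 1. Fusion cells with sh#ctrl had 549, 4.32 and 25.6 CPM and empty-vector cells 196, 4.78 and 27.0 CPM. All 4 libraries numbered 2 lay above all others, and all 4 numbered 3 below all others. Irf9, the DNA-binding subunit of ISGF3, was flatter, at 117, 40.8 and 99.2 CPM with sh#1 and 106, 40.5 and 85.8 CPM with sh#2. Its values were 143, 34.9 and 62.4 CPM in fusion cells with sh#ctrl, against 93.5, 36.0 and 41.5 CPM with the empty vector. Stat2, the partner of IRF9 in that complex, ran from 48.0 to 173 CPM with its peak in the fusion library with sh#ctrl numbered 2, and its 3 numbers overlapped.

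Antiviral effectors spanned a wide range of amplitudes. Ifit1, which binds viral RNA lacking the host cap, had 27.1, 0.278 and 8.80 CPM with sh#1 and 29.4, 0.734 and 11.6 CPM with sh#2 (numbers 2, 3 and 1). It had 103, 0.196 and 2.41 CPM in fusion cells with sh#ctrl and 21.1, 0.217 and 2.47 CPM with the empty vector. Ifitm3, a membrane protein that blocks viral entry, had 152, 66.1 and 87.5 CPM with sh#1 and 175, 39.6 and 69.3 CPM with sh#2. It had 261, 45.7 and 41.0 CPM in fusion cells with sh#ctrl, against 128, 25.2 and 36.0 CPM with the empty vector. Ifit1 was near the level of a few counts in number 3, while Ifitm3 was at 25.2 to 66.1 CPM there. Bst2, tetherin, which holds budding virions at the membrane, stayed between 45.7 and 113 CPM in every library except the fusion library with sh#ctrl numbered 2, at 259 CPM. With sh#2 its lowest value, 68.0 CPM, was that of number 2.

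The OAS family makes the 2′-5′ oligoadenylate that activates RNase L, except for Oasl1, which lacks that activity. Oas1a had 40.7, 10.4 and 36.6 CPM with sh#1 and 44.7, 13.2 and 33.1 CPM with sh#2, against 103, 10.4 and 20.8 CPM with sh#ctrl in fusion cells. Empty-vector cells had 65.9, 11.5 and 17.6 CPM. Oasl1 was at 5.0 to 17.6 CPM in number 3, where the empty-vector library was the highest, at 28.7 to 103 CPM in number 2 and at 11.6 to 23.2 CPM in number 1. Reads of Oas1a and its neighbouring copies can be split or lost, so that its level is uncertain, as are those of Ifit1, Ifit3, Mx1, Mx2, Trim30a, Ifi204 and the guanylate-binding genes.

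Isg15, a ubiquitin-like modifier, and Usp18, the protease that removes it and also blocks the type I receptor, are the best-known pair of the modifier group. Isg15 was at 29.3, 2.64 and 28.5 CPM with sh#1 and 33.9, 3.81 and 23.2 CPM with sh#2 in numbers 2, 3 and 1. It was at 96.2, 1.57 and 5.69 CPM in fusion cells with sh#ctrl and 24.6, 3.47 and 6.35 CPM with the empty vector. In number 1 the hairpin libraries thus held several times the Isg15 of both sh#ctrl libraries. Usp18 was at 118, 48.5 and 101 CPM with sh#1 and 90.3, 57.5 and 86.3 CPM with sh#2. With sh#ctrl it was at 279, 50.6 and 46.0 CPM in fusion cells and 116, 27.6 and 46.2 CPM with the empty vector.

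The GTPases of the IRG and GBP families attack the vacuoles of intracellular pathogens. Irgm1, a regulator of the family, had 142, 39.6 and 80.9 CPM with sh#1 and 105, 39.2 and 64.4 CPM with sh#2. It had 256, 31.2 and 45.3 CPM in fusion cells with sh#ctrl, against 122, 25.2 and 31.1 CPM with the empty vector. Ifi47 was at 20.6 to 56.7 CPM in 11 libraries and at 110 CPM in the fusion library with sh#ctrl numbered 2. The genes for peptide presentation come last. Psmb8 was at 143, 154 and 156 CPM with sh#1 and 118, 130 and 129 CPM with sh#2. It was at 165, 148 and 114 CPM in fusion cells with sh#ctrl and 156, 194 and 125 CPM with the empty vector, so that the numbers overlapped throughout. Psmb9, Tap1 (a subunit of the peptide transporter) and Psmb8 lie side by side on chromosome 17 (mm10, 34181987 to 34201454), and Psmb9 and Tap1 overlap on opposite strands.

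Cxcl10, the chemokine that attracts T cells, was the scarcest member, with 115 counts in number 2, 2 in number 3 and 15 in number 1. Its 12 values were 1.12, 0.139 and 1.43 CPM with sh#1, 2.63, 0.147 and 0.979 CPM with sh#2, 14.5, 0 and 0.657 CPM in fusion cells with sh#ctrl, and 3.98, 0 and 0 CPM with the empty vector. Ifi27l2a differed from the rest in that 2 libraries shared the top: it was at 262 CPM in the fusion library with sh#ctrl numbered 2 and at 258 CPM in the empty-vector library of that number. With sh#1 and sh#2 it had 111 and 87.5 CPM there. Ifi35, which binds the regulator NMI, was at 48.4 to 82.4 CPM in number 2, 30.2 to 36.9 CPM in number 3 and 29.8 to 52.1 CPM in number 1, with number 2 above number 3 throughout.

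**Figure D2:**
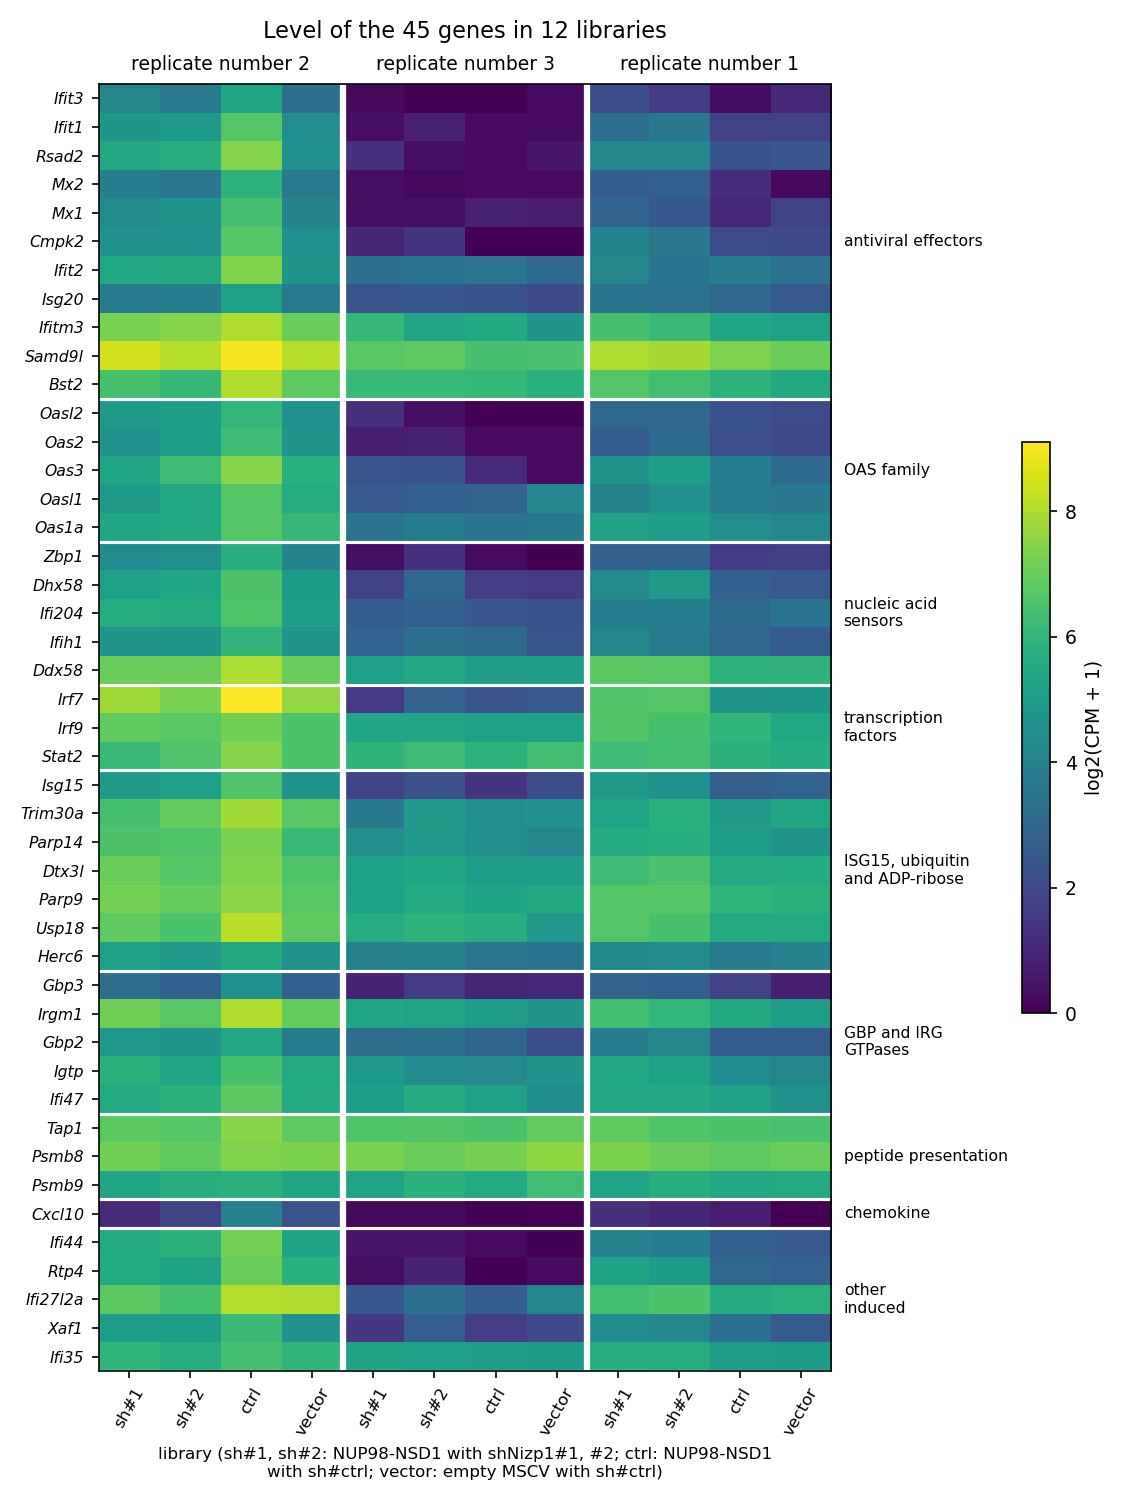
Level of each of the 45 genes (rows, by role) in the 12 libraries (columns, by replicate number and then group), coloured by log2(CPM + 1). The column of the fusion library with sh#ctrl numbered 2 is the brightest in 43 rows, number 3 is dark for most roles, and the 3 peptide presentation genes show the least contrast between numbers 2 and 3.

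The series asks, by its title, whether Nizp1 works with NUP98-NSD1, and the first comparison set fusion cells against empty-vector cells, both with sh#ctrl. With edgeR's quasi-likelihood test, 0 of the 45 genes were called higher or lower at an adjusted p under 0.05, where 0.00834% of tested genes were called higher and 0% lower. None had an unadjusted p under 0.05. The median log2 fold change over the 45 genes was 1.14, and 42 lay above 0, against a median of 0.01 over all tested genes. Irf7 averaged 193 ± 308 CPM with the fusion and 76.0 ± 105 CPM with the vector (SD, n = 3 each), so its spread exceeded its difference. With the replicate block 0 genes were again called, where 0.25% of tested genes were called higher and 0.025% lower, and 10 had an unadjusted p under 0.05. The median was then 0.91. Ifi47, with the smallest p, had a log2 fold change of 0.91 ± 0.28 (SE; edgeR adjusted p = 0.309).

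That count of 0 depended on the filter: with the block and no filter on low counts, edgeR called 30 of the 45 genes higher with the fusion, where 1.18% of 23682 genes were called higher and 0.722% lower. DESeq2 with the block called 1 gene higher and 0 lower, where 0.5% and 0.133% of tested genes were, and DESeq2 without it called 0, where 0.0667% and 0% were. With limma-voom 0 genes were called, where 0.00834% and 0% of tested genes were called higher and lower, or 0.208% and 0.025% with the block. The difference was in 1 pair of libraries. In number 2 all 45 genes were higher with the fusion than with the vector (50.2% of tested genes were), by a mean of 1.32 in log2(CPM + 1), and 31 of them by over 1 unit. In number 3, 18 were higher and 24 lower (mean -0.01), and in number 1, 29 were higher and 16 lower (mean 0.15). Higher in all 3 pairs were 12 genes, Ifit2, Isg20, Bst2, Ifitm3, Oas3, Ifih1, Dhx58, Parp14, Ifi47, Irgm1, Ifi35 and Ifi44, or 12 of 45 where 15.9% of tested genes were. Without the fusion library numbered 2, the median log2 fold change was -0.71, and -0.21 with the block. Without the fusion library numbered 1, edgeR with the block called 4 genes higher, where 0.21% of tested genes were.

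The second set of comparisons asked what depletion of Nizp1 did in fusion cells. Both hairpins were set against the same 3 fusion libraries with sh#ctrl, so their results are not independent of each other. With sh#1, edgeR called 0 genes higher and 0 lower, where 0% of tested genes were called in either direction. With sh#2 it called 0 higher and 0 lower, where 0% and 0.00834% of tested genes were called. None of the 45 genes had an unadjusted p under 0.05 in either. The median log2 fold change was -0.68 with sh#1 and -0.68 with sh#2, and -0.30 and -0.22 with the block. With the block 0 genes were called with either hairpin, where 0.509% and 1.12% of tested genes were called higher and lower with sh#1, and 0.142% and 0.075% with sh#2. The smallest p with sh#1 belonged to Oas2 (log2 fold change -0.92 ± 0.44, edgeR adjusted p = 0.441) and that with sh#2 to Ifit2 (-1.06 ± 0.47, edgeR adjusted p = 0.468). With the block and no filter, edgeR called 6 genes lower and 0 higher with sh#1 (1.22% and 0.937% of genes), and 4 lower and 0 higher with sh#2 (0.477% and 1.08%). DESeq2 called 0 with sh#1, where 0.0417% and 0.283% of tested genes were called higher and lower, or 0.592% and 1.42% with the block. It called 0 with sh#2, where 0.0167% and 0.0417% were, or 0.342% and 0.242% with the block. With limma-voom 0 were called with sh#1, where 0% and 0% of tested genes were called, or 0.55% and 1.14% with the block, and 0 with sh#2, where 0% and 0.00834% were, or 0.175% and 0.1% with the block.

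Within the replicate numbers the hairpin differences had opposite signs. In number 2 all 45 genes were lower with sh#1 than with sh#ctrl, by a mean of 1.22 in log2(CPM + 1) (mean difference -1.22), and all 45 were lower with sh#2 (-1.20). In number 1, 44 of 45 were higher with sh#1 (mean 0.96) and 44 with sh#2 (mean 0.91). In number 3, 31 were higher with sh#1 (mean 0.14) and 38 with sh#2 (mean 0.37). Between 47.0% and 52.6% of all tested genes were higher in these 6 pairs. Lower in number 2 and higher in numbers 1 and 3 were 30 genes with sh#1 and 38 with sh#2, where 13.2% and 11.4% of tested genes had that pattern. With 1 library per group and number, whether the numbers differ in these effects could not be tested.

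The sign of the median hung on 1 library. Without the fusion library with sh#ctrl numbered 2, the median log2 fold change was 1.19 with sh#1 and 1.23 with sh#2, and 0.52 and 0.57 with the block, and 0 genes were called. Without the fusion library with sh#ctrl numbered 1, 1 gene was called lower with sh#1 with the block, where 0.364% of tested genes were. With all 4 libraries numbered 2 left out, the median log2 fold change was 0.64 with sh#1, 0.68 with sh#2 and 0.06 for the fusion against the vector. The hairpin libraries numbered 2 lay at the level of the empty vector: the mean log2(CPM + 1) there was 5.60 with sh#1 and 5.61 with sh#2, against 5.50 with the vector.

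Amplitudes differed by role. In number 2 the antiviral effectors were lower with sh#1 by a median of -1.90 and with sh#2 by -1.72, and the peptide presentation genes by -0.42 and -0.48. Cxcl10 differed by -2.88 and -2.10. In number 1 the effectors were higher by a median of 1.43 with sh#1 and 1.28 with sh#2, and the nucleic acid sensors by 1.22 and 0.89, while the peptide presentation genes differed by 0.34 and 0.18. The single gene with no overlap between groups was Psmb9 with sh#1, at 41.0, 38.9 and 39.3 CPM against 55.2, 46.9 and 44.5 CPM with sh#ctrl, where all 3 libraries lay below all 3 for 4.42% of tested genes. Its fold change with the block was -0.31 ± 0.19 on the log2 scale (edgeR adjusted p = 0.571).

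**Figure D3:**
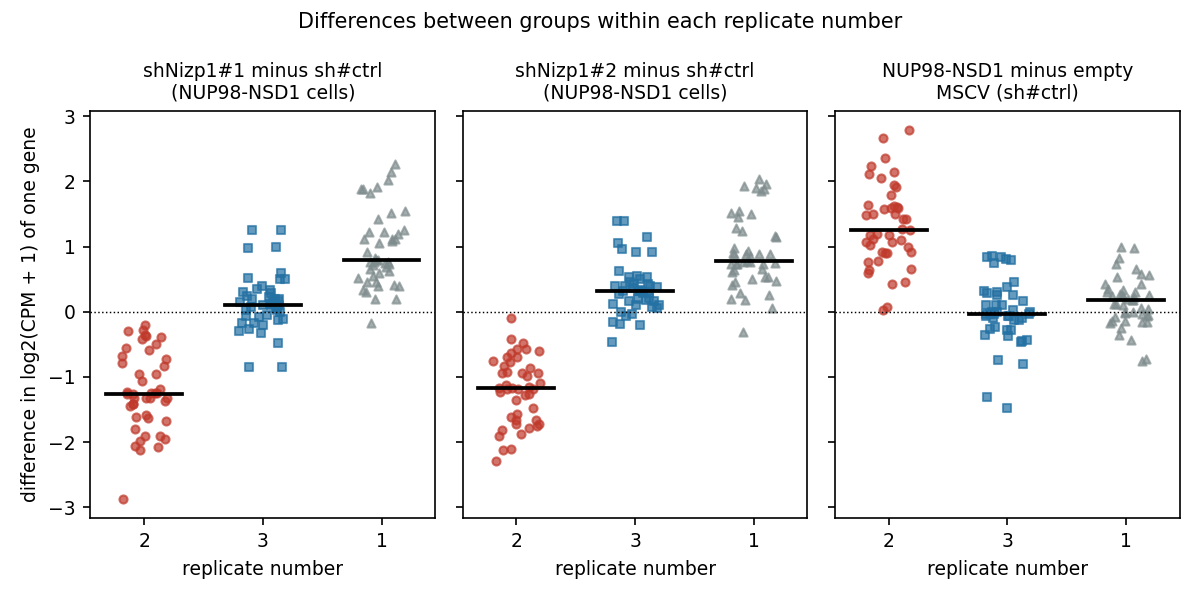
Difference in log2(CPM + 1) of each of the 45 genes (points) between 2 libraries of the same replicate number (horizontal axis), for each hairpin against sh#ctrl in fusion cells and for the fusion against the empty vector; lines are medians. With the hairpins all points of number 2 lie below 0 and nearly all of number 1 above it, and with the fusion all points of number 2 lie above 0.

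The hairpins were then compared with each other. With sh#2 against sh#1, edgeR called 0 of 45 genes, where 0% of tested genes were called higher and 0.00834% lower, and 0 with the block, where 1.78% and 0.584% were. With the block and no filter it called 2 higher and 0 lower, where 1.85% and 0.798% of genes were called. DESeq2 called 0, where 0.517% and 0.125% of tested genes were called, or 2.18% and 0.809% with the block, and limma-voom 0, where 0% and 0.00834% were, or 1.97% and 0.675% with the block. Of the 45 genes 0 had an unadjusted p under 0.05 without the block and 1 with it. The median log2 fold change was 0.01, or 0.03 with the block. The mean difference was 0.01 in number 2, 0.22 in number 3 and -0.05 in number 1. Psmb9 was at 51.9, 57.1 and 50.7 CPM with sh#2, against 41.0, 38.9 and 39.3 CPM with sh#1, with no overlap (edgeR with the block, log2 fold change 0.43 ± 0.18, adjusted p = 0.299). Psmb8 lay the other way, with 118, 130 and 129 CPM with sh#2 against 143, 154 and 156 CPM with sh#1 (-0.27 ± 0.13, edgeR adjusted p = 0.382). All 3 libraries lay above all 3 for 4.87% of tested genes and below for 4.34%.

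The largest differences lay between replicate numbers, each comparison taking 4 libraries against 4 with the group as a covariate. In number 2 against number 3, edgeR called 40 of 45 genes higher and 0 lower, where 25.4% of tested genes were called higher and 24.2% lower. The median log2 fold change was 2.61. In number 2 against number 1, 30 were higher and 0 lower, where 13.4% and 12.6% of tested genes were called, with a median of 1.51. In number 3 against number 1, 0 were higher and 20 lower, where 10.3% and 15.9% of tested genes were called, with a median of -1.03. All 4 libraries numbered 2 lay above all 4 numbered 3 for 39 genes (19.8% of tested genes) and above all 4 numbered 1 for 31 (12.2%). All 4 numbered 3 lay below all 4 numbered 1 for 23 genes (13.8%). Since so many genes of every kind differed between the numbers, a call by itself does not set these genes apart. The calls of the 45 genes had 1 direction in each comparison, but this was not particular to them. Of 12 neutrophil genes, 12 were called higher and 0 lower in number 2 than in number 3, with a median log2 fold change of 9.02. Of 12 monocyte and macrophage genes, 12 were called higher and 0 lower there, with a median of 3.12.

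By role, all 5 members of the OAS family were higher in number 2 than in number 3 and than in number 1. Oas2 averaged 39.9 ± 24.3 CPM in number 2, 0.460 ± 0.293 CPM in number 3 and 4.91 ± 2.06 CPM in number 1 (SD, n = 4 each). Its log2 fold change was 6.18 ± 0.46 over number 3 (edgeR adjusted p = 3.52e-06) and 2.91 ± 0.33 over number 1 (edgeR adjusted p = 0.000289). Of the 11 antiviral effectors, 10 were higher in number 2 than in number 3 and 9 than in number 1. Ifit3 (393 counts in number 2, 2 in number 3 and 34 in number 1) had a ratio of 240 over number 3 with an exact interval of 65.9 to 1987. Rsad2, viperin, which makes a chain-terminating nucleotide, was higher by 6.70 ± 0.95, and its neighbour Cmpk2, a nucleotide kinase, by 5.73 ± 1.05, both on the log2 scale over number 3. Mx1 and Mx2, dynamin-like GTPases that trap viral capsids, were higher by 6.06 ± 0.77 and 6.56 ± 1.05. These rest on few counts in number 3, 11 for Mx1 and 5 for Mx2, against 749 and 485 in number 2. The exception among the effectors was Bst2 (0.92 ± 0.44, edgeR adjusted p = 0.128).

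Irf7 was higher by 6.02 ± 0.85 in number 2 over number 3 (edgeR adjusted p = 0.00163) and lower by -3.87 ± 0.87 in number 3 against number 1 (edgeR adjusted p = 0.0217). Over number 1 it missed the threshold (2.15 ± 0.66, edgeR adjusted p = 0.0585). Irf9 was called in all 3 comparisons, at 1.59 ± 0.19, 0.71 ± 0.18 and -0.88 ± 0.19, and Stat2 in none. All 5 sensors were higher in number 2 than in number 3, Zbp1 the most (5.72 ± 0.62) and Ddx58 the least (2.17 ± 0.33). So were all 7 genes of the ISG15 group, between Herc6 (1.37 ± 0.19) and Isg15 (3.95 ± 0.79), and all 5 GTPases, between Ifi47 (0.92 ± 0.24) and Gbp3 (3.11 ± 0.61). The remaining 5 genes were led by Ifi44 (7.78 ± 0.73, with 1478 counts in number 2, 7 in number 3 and 209 in number 1). Rtp4 followed (7.46 ± 1.16, with 1334, 9 and 410 counts). Cxcl10 had a ratio of 70.2 over number 3 with an exact interval of 19.0 to 586.

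Tap1, Psmb8 and Psmb9 were called in no comparison. Over number 3 their log2 fold changes were 0.32 ± 0.18, -0.10 ± 0.12 and -0.20 ± 0.16, the 3 smallest in size of the 45. They made up 6.13% of the CPM of all 45 genes in the fusion library with sh#ctrl numbered 2 and 37.3% in the empty-vector library numbered 3. Of the 45 genes 19 lie in 8 runs of neighbours at most 100000 bases apart. Within a run the log2 fold changes over number 3 were 1.74 to 2.22 for Parp14, Dtx3l and Parp9, and 2.61 to 7.45 for Ifit2, Ifit3 and Ifit1. Genes with the ISRE core in the window had a median log2 fold change of 2.45 over number 3 and genes without it 1.87, and 15 of 17 and 14 of 17 were called. Members with and without the core were not tested against each other.

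**Figure D4:**
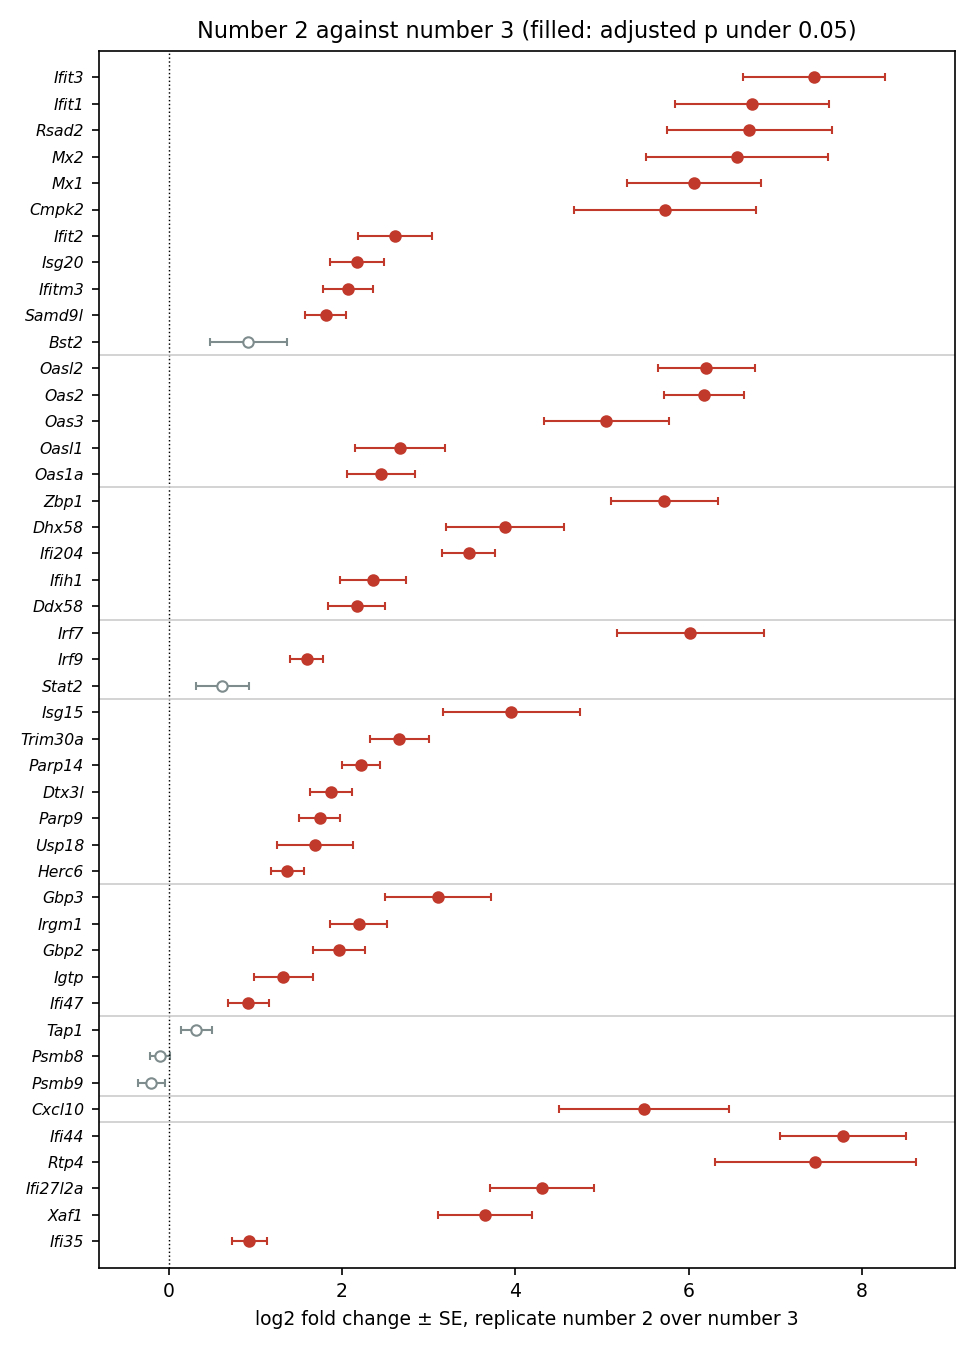
Log2 fold change ± SE (horizontal axis, edgeR with group as a covariate) of replicate number 2 over number 3 for each of the 45 genes, by role; filled points have an adjusted p under 0.05. Of the 45 points 40 are filled and lie right of 0, up to 7.78 for Ifi44, and Bst2, Stat2, Tap1, Psmb8 and Psmb9 are open.

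The count over number 1 varied with the libraries used. With 1 library left out, 8.72% to 15.9% of tested genes were called higher in number 2 than in number 1, 20.9% to 27.7% higher than in number 3, and 10.2% to 16.4% lower in number 3 than in number 1. It fell to 19 without the fusion library with sh#ctrl numbered 1 and to 18 without the empty-vector library numbered 1, and 15 of the 30 genes were called whichever library was left out. Of the 40 genes called over number 3, 39 were called in every omission. For number 3 against number 1 the count was 35 with no filter, where 8.96% of genes were called lower, and 11 with limma-voom, where 16.2% were. With 1 library left out it ran from 5 to 29, and 4 of the 20 genes were called in every omission. It was 5 without the library numbered 3 of fusion cells with sh#1, with sh#2 or with sh#ctrl, and without the library numbered 1 with sh#2. It was 8 without the library numbered 1 with sh#1, and 9 and 12 without the empty-vector libraries numbered 1 and 3.

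Transcripts of interferons themselves were almost absent. Of 20 type I and III interferon genes, 18 had no count in any library, which allows up to 0.417 to 0.837 CPM per library. Ifnb1, interferon beta, had 7 counts in all, and those lay in the 4 libraries numbered 2, with 3 in sh#1, 1 in sh#2, 2 in fusion cells with sh#ctrl and 1 with the vector. Each of these is at or below the floor of 3 counts. Ifna7 had 1 count, in the fusion library with sh#ctrl numbered 2, and Ifng 1 count, in the empty-vector library numbered 3.

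Other genes of the pathway were read from lists outside the 45, to be set beside the 25.4% of all tested genes called higher in number 2 than in number 3 and the 13.4% called higher than in number 1. Of 5 tested interferon receptor genes, 3 were higher in number 2 than in number 3 and 3 than in number 1, among them Ifnar1 (0.78 ± 0.08 and 0.57 ± 0.08) and Ifngr2 (2.71 ± 0.25 and 1.22 ± 0.22), while Ifnar2 was at -0.01 ± 0.11 and 0.13 ± 0.11. Of 5 JAK and STAT genes, 3 and 1 were higher, the second count near that background. Of 6 further IRF genes, 4 and 4 were higher, led by Irf8, a factor of monocytes and dendritic cells (4.01 ± 0.46 and 2.14 ± 0.39), and Irf3, which responds to sensors, was at 0.07 ± 0.11 and 0.01 ± 0.11.

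Of 16 genes of the sensing pathway, 8 were higher in number 2 than in number 3, and 7 were higher and 1 lower than in number 1. The endosomal nucleic acid receptor Tlr9 had 69 counts in number 2, 1 in number 3 and 4 in number 1. Of 9 negative regulators, 7 and 5 were higher, Socs3 by 3.07 ± 0.36 and 1.57 ± 0.32. Of 51 further interferon-induced genes, 40 were higher and 3 lower than in number 3, and 33 were higher and 1 lower than in number 1. Slfn4, a Schlafen gene of myeloid cells, had 2834 counts in number 2 and 0 in number 3, at least 1153-fold higher against 3 counts over the 4 libraries. Ifi44l, at 486 counts against 0, was at least 198-fold higher. Not all went that way: Ly6e, an abundant surface protein, was at 647 to 1348 CPM in number 2, 1884 to 3158 CPM in number 3 and 971 to 1463 CPM in number 1, and its log2 fold change over number 3 was -1.54 ± 0.25 (edgeR adjusted p = 0.00173).

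Of 16 further interferon gamma-induced genes, 11 were higher in number 2 than in number 3 and 10 than in number 1, and 0 were lower. Cd274, which encodes PD-L1, was at 238 to 353 CPM in number 2, 73.6 to 109 CPM in number 3 and 103 to 135 CPM in number 1, with no overlap between number 2 and the others. Of 13 MHC class I and loading genes, 8 and 6 were higher, by small amounts: B2m, the light chain, by 0.78 ± 0.16 and 0.50 ± 0.16. In number 3 against number 1, where 15.9% of all tested genes were called lower, 2 of 5 receptor genes, 0 of 5 JAK and STAT genes, 1 of 6 IRF genes, 3 of 16 sensing genes and 4 of 9 negative regulators were lower. So were 18 of 51 further interferon-induced, 3 of 16 interferon gamma-induced and 2 of 13 MHC class I genes, and the counts of the IRF, sensing, interferon gamma and MHC class I lists were near that share. In that comparison 2 of the further interferon-induced genes were higher, Ly6e (1.16 ± 0.24) and Ifitm1 (0.62 ± 0.17).

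Between the groups a few of the 121 tested genes of these lists were called with the replicate block, and 0 without it. With sh#1 1 was higher and 2 were lower, where 0.509% and 1.12% of all tested genes were called, and with sh#2 against sh#1 2 were higher and 2 lower, where 1.78% and 0.584% were. These counts are close to the shares over all genes, so the genes below are given as values and do not set the lists apart. For the fusion against the vector and for sh#2 against sh#ctrl, 0 were called with either. Tmem173, the DNA-sensing adaptor STING, rose with sh#1 to 59.7, 37.8 and 46.2 CPM, against 40.6, 25.1 and 26.7 CPM with sh#ctrl in numbers 2, 3 and 1 (log2 fold change 0.64 ± 0.12, edgeR adjusted p = 0.0156). With sh#2 it was at 41.1, 24.5 and 28.9 CPM, and sh#2 lay below sh#1 by -0.61 ± 0.12 (edgeR adjusted p = 0.0132). Mavs, the adaptor of RIG-I and MDA5, fell with sh#1 to 25.1, 28.7 and 20.9 CPM, against 38.2, 42.6 and 34.4 CPM with sh#ctrl (-0.62 ± 0.13, edgeR adjusted p = 0.0288). In all 3 pairs with sh#1, Tmem173 was higher and Mavs lower. The phosphatase gene Ptpn6 fell with sh#1 by 0.51 on the log2 scale (edgeR adjusted p = 0.0136). With sh#2 against sh#1, the repressor Irf2 was higher by 0.76 ± 0.14 and Ciita, the activator of MHC class II genes, by 1.75 ± 0.41, and Tent5a was lower by -0.49 ± 0.11, with edgeR adjusted p-values of 0.0103, 0.0367 and 0.0302.

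Markers of myeloid cells moved with the replicate number too. The summed level of 12 neutrophil genes, all tested, was 883 to 1678 CPM in number 2, 2.82 to 11.5 CPM in number 3 and 212 to 463 CPM in number 1. That of 12 monocyte and macrophage genes, all tested, was 2115 to 3889, 96.2 to 1168 and 887 to 1581 CPM. Ly6c2, a gene of this sum that is also among the further interferon-induced genes, averaged 66.7, 0.0491 and 4.94 CPM. The summed level of 12 conventional dendritic cell genes (6 tested) was 159 to 565, 30.6 to 69.3 and 80.5 to 125 CPM. For 10 plasmacytoid dendritic cell genes (4 tested, with Ccr9 and Ly6d at 0 in every library), the sum without Bst2 was 40.3 to 88.1, 8.25 to 58.8 and 15.4 to 43.5 CPM. That sum holds Irf8, given above among the further IRF genes, which averaged 33.2, 1.97 and 7.52 CPM. The part of these cell types in the differences between numbers was not tested.

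Other markers differed in both directions or less in sum. In number 2 against number 3, 8 of 12 mast cell genes were called higher and 2 lower, and 3 of 9 tested stem and progenitor genes higher and 5 lower. Of all tested genes 25.4% were called higher and 24.2% lower there. The 2 of 12 lower and the 3 of 9 higher were near those shares. Mast cell genes summed to 49298 to 60420 CPM in number 2, 40547 to 47448 CPM in number 3 and 51732 to 65945 CPM in number 1, and stem and progenitor genes (9 of 10 tested) to 4018 to 4447, 3944 to 4836 and 4170 to 4953 CPM. T and NK cell genes (2 of 10 tested, with Cd3g, Cd8a and Gzma at 0) summed to at most 9.69 CPM, B cell genes (0 of 8 tested, with Ms4a1 at 0) to at most 3.25 CPM, and erythroid genes (2 of 8 tested) to 147 to 227 CPM. Within number 2, the monocyte sum was 3610 CPM with sh#1, 3889 CPM with sh#2, 3012 CPM in fusion cells with sh#ctrl and 2115 CPM with the vector. The neutrophil sum was 883, 1678, 1621 and 1658 CPM in the same libraries. The T and NK sum was highest in the fusion library with sh#ctrl (9.69 CPM). The plasmacytoid sum without Bst2 was 57.8, 88.1, 80.3 and 40.3 CPM with sh#1, sh#2, sh#ctrl in fusion cells and the vector, and the conventional dendritic cell sum 364, 565, 405 and 159 CPM.

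Between the groups, 5 of 12 neutrophil genes (S100a8, S100a9, Camp, Ngp and Ltf) were called lower with sh#1 with the replicate block, where 1.12% of tested genes were. The median log2 fold change over the 12 was -1.10. With sh#2 against sh#1, 5 of the 12 (S100a8, S100a9, Camp, Ngp and Lcn2) were called higher, where 1.78% of tested genes were, with a median of 1.01. The summed level of the 12 genes was 883, 11.5 and 212 CPM with sh#1, against 1621, 3.34 and 463 CPM with sh#ctrl in fusion cells in numbers 2, 3 and 1. With the fusion against the vector, 1 of 4 tested plasmacytoid genes, Runx2, was called higher, where 0.25% of tested genes were. All 4 lay above 0 (median 1.16), and 6 of 6 tested conventional dendritic cell genes lay above 0 (median 0.91) with 0 called. With sh#2 against sh#ctrl 0 marker genes were called, and without the block 0 were called in any group comparison. The part of these cell types in the values of the interferon-stimulated genes was not tested.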

How the data were processed

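The authors deposited whole-number read counts per gene for 12 libraries. The submitters' processing notes name Trimmomatic 0.32, STAR 2.5.3a, the build mm10 and featureCounts. The strand setting, the annotation and the release of featureCounts were not given in the sources used here. Per the labels' protocols, libraries were stranded mRNA libraries with single reads of 75 nt. Without the strand setting, overlapping genes such as Psmb9 and Tap1 or Parp9 and Dtx3l may share reads, and near-identical copies may lose or split theirs.

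Counts were tested with the quasi-likelihood test of edgeR 4.0.16 in R 4.3.3 over all 12 libraries (TMM, filterByExpr, 11994 genes tested), with p-values adjusted by Benjamini-Hochberg over all tested genes and called under 0.05. Group comparisons had 1 mean per group. Comparisons of replicate numbers had group as a covariate. The script was tested on simulated data. SEs were derived from the F statistic. Same-numbered libraries correlated in 18 of 18 pairs (r 0.2 to 0.87, median 0.74), and 12 of 12 correlated best with their own number. That is why blocked values are given, and that a number marks an experiment is an inference. Since nothing ties libraries to separate mice, p-values cover only the spread among these libraries. Differences per number are in log2(CPM + 1), with a pseudocount of 1. Exact 95% intervals and the floor of 3 counts cover counting error only, since reads carry no molecular identifiers. No 2 replicates agreed within sampling noise.

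The 45 genes, their roles and the gene lists were chosen with earlier results of these data known. Named genes were Zkscan17, in each role the 2 genes of highest mean CPM per kb, in each comparison up to 10 called genes of largest change, and in each list the 2 most abundant genes and up to 3 called genes. From these the text gives examples. The genes at the end of a role's range, those with the smallest p, those higher in all 3 pairs, Ly6e and others outside the rule were picked after their values were seen. Promoter windows came from RefSeq (GRCm38.p6). Alternatives were RLE and upper-quartile scaling, no filter, 1 CPM in 3 libraries, DESeq2 1.42.0, limma-voom (limma 3.58.1), the 2 groups alone, left-out libraries and numbers, and the replicate block. Blocked fits with another scaling, filter or tool were added after the data were seen.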

Additional observations from a re-analysis of the deposited data

Results flagged for a closer look

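Within the replicate numbers, 4 mean differences of the 45 genes in log2(CPM + 1) had the opposite sign to those of the other numbers. With 1 library per group and number, these differences were not tested. With sh#1 against sh#ctrl in fusion cells, number 2 was at -1.22, while number 3 was at 0.14 and number 1 at 0.96. With sh#2 against sh#ctrl, number 2 was at -1.20, while number 3 was at 0.37 and number 1 at 0.91. For the fusion against the empty vector, number 3 was at -0.01, while number 2 was at 1.32 and number 1 at 0.15. For sh#2 against sh#1, number 1 was at -0.05, while number 2 was at 0.01 and number 3 at 0.22. The -0.01 and -0.05 are close to 0, so their sign carries little.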

How the results depend on the processing

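Scaling (RLE, upper quartile), a filter of 1 CPM in 3 libraries and limma-voom left the group comparisons at 0 called genes of the 45, with and without the block, as did DESeq2 without it. With the replicate block and no filter, 30 genes were called higher with the fusion, 6 lower with sh#1, 4 lower with sh#2 and 2 higher with sh#2 against sh#1, and with the block and DESeq2 1 was called higher with the fusion; the cause was not tested. With the replicate block and 1 library left out, 0 to 4 were called higher with the fusion (4 without fusion sh#ctrl replicate 1) and 0 to 1 lower with sh#1 (1 without the same library). With edgeR or limma-voom, the replicate block and the filter kept, all 12 libraries gave 0 calls of members, as without the block. With the block and all libraries numbered 1 left out, 1 was called lower with sh#1, and with those numbered 2 left out, 1 was called higher, Rtp4, whose log2 fold change turned positive, at 2.35. The shares over all tested genes in these 2 fits are not given here, so these single calls do not set the 45 genes apart. With 1 library left out and no block, the median log2 fold change ran from -0.71 to 1.99 for the fusion, -1.21 to 1.19 for sh#1 and -1.13 to 1.23 for sh#2. Between numbers, 18 to 29 genes were higher in number 2 than in number 1, 39 to 40 than in number 3, and 5 to 29 were lower in number 3 than in number 1 with 1 library left out. The last count was 35 with no filter and 11 with limma-voom, where 8.96% and 16.2% of genes were called lower. RLE, upper quartile, 1 CPM in 3 libraries, DESeq2 and a fit with no group term gave 20 to 28. For these the shares over all genes are not given here. Depth limits Cxcl10, Ifit3 and the other members with few counts in number 3, where 3 counts were worth up to 0.652 CPM.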
